A study of Homo sapiens with 6 samples.

Results

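The genes described here are 10 members of bone morphogenetic protein (BMP) signalling and its readout: the ligand BMP4, the receptors BMPR1A and BMPR2, the inhibitors GREM1, SMAD6 and BAMBI, and the inhibitor-of-differentiation genes ID1 to ID4. They were taken by gene name from the deposited table of 17911 genes, which lists 9 of the 10 members. ID4 was not among its rows and was not analysed here. The lowest mean of a listed gene was 9.83 normalised reads, and why a gene is not listed was not tested. The set was selected on measured values as well as names, namely the low levels of ID1 and ID3 in the libraries numbered 1 of both genotypes. All 9 were tested, among 17893 genes tested in all. The cells were LX-2, an immortalised human hepatic stellate cell line used as a culture model of the matrix-producing cells of the liver. Both groups were grown in DMEM with 10% FBS, and the labels name no added agent. The mutant group carried a mutation in exon 3 of MPI, the gene of mannose phosphate isomerase, and the other group was wild type (WT), with 3 libraries in each. The labels do not say how the mutation was made, whether the mutant line is 1 clone, or whether the libraries stem from separate cultures, so a p-value here measures the variation among libraries alone, and that variation may be technical.

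BMP ligands are secreted dimers that bind type I and type II receptor kinases, which phosphorylate SMAD1, SMAD5 and SMAD9. These join SMAD4 and switch on target genes, among which the ID genes and SMAD6 are the best known. ID proteins hold a helix-loop-helix domain without a DNA-binding region and keep E proteins such as TCF3, TCF4 and TCF12 from binding DNA, while secreted binders such as gremlin (GREM1), the inhibitory SMADs and the kinase-less pseudoreceptor BAMBI hold the pathway down. In stellate cells the pathway is studied beside that of TGF-beta, the main signal of fibrosis.

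The members chosen for their shared deviation between libraries, ID1 and ID3, are shown first by the 250 bases before their transcription start, with ID2 as the third listed gene of the family and with SMAD6 and BAMBI, the inhibitors that moved together across libraries. The sequences and starts are those of RefSeq on GRCh38.p14, written along the strand of the gene. By the GENCODE gene spans given below, the windows of ID2 and ID3 lie inside their genes, and most of the BAMBI window does. For these genes another start is thus annotated further upstream. ID1 lies on chr20:31605039-31605288 (plus strand), ID2 on chr2:8681806-8682055 (plus strand), ID3 on chr1:23559502-23559751 (minus strand), SMAD6 on chr15:66701986-66702235 (plus strand) and BAMBI on chr10:28677271-28677520 (plus strand). Capitals mark GGCGCC, the GC-rich motif to which SMAD1 and SMAD5 bind, and TATAA or its reverse complement, the core of a TATA box.
ID1: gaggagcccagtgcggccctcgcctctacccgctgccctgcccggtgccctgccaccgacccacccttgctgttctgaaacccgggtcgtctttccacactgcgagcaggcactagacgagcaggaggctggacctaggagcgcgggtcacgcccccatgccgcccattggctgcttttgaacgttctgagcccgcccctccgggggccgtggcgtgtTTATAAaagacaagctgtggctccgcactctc
ID2: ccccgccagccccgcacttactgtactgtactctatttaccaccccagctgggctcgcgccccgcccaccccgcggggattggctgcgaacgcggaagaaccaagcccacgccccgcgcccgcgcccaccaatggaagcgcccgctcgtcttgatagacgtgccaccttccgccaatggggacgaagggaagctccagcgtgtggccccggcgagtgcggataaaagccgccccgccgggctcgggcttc
ID3: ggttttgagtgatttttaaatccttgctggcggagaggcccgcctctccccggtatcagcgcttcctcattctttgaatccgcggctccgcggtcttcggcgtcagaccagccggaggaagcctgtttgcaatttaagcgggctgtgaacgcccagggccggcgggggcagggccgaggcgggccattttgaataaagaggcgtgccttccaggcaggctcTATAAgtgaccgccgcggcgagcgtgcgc
SMAD6: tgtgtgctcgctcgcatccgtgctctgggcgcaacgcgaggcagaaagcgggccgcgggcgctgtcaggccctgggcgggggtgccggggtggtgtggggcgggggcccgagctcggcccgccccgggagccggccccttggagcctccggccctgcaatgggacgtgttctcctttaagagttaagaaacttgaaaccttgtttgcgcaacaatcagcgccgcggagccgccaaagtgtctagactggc
BAMBI: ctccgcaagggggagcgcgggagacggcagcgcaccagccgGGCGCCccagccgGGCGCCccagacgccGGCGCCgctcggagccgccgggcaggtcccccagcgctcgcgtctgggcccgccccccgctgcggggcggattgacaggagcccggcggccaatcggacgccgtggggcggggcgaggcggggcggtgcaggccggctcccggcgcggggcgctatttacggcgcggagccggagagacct

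GGCGCC stood 3 times in the BAMBI window, starting 209, 196 and 181 bases before the start, and was not among the letters of the windows of ID1, ID2, ID3 or SMAD6. It occurred in 16.4% of the 35116 promoter windows of that table. The median GC content of those windows was 58.0%, and that of the BAMBI window was 81.2%. Windows of GREM1, BMPR2 and BMP4, which are not shown, held the motif too, but GREM1 and BMP4 also have windows without it. TATAA, searched on both strands, began 29 bases before the start in ID3. In ID1 it stood on both strands at once, as overlapping matches 31 and 32 bases before the start. TATAA occurred in 18.9% of all windows, and in none of the windows of ID2, SMAD6 and BAMBI. The short motif CAGAC, a core of SMAD binding elements, was found in the ID3 window (147 bases before the start) and at 2 places in that of BAMBI, against 38.0% of all windows. The E-box CACGTG, present in 6.34% of windows, was in none of the 5. Such matches describe letters in a short window and are not binding sites.

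Depth was even. The reads recovered from the deposited values were 27037905 to 34970840 per library over the listed genes. MPI itself had 1051, 978 and 1035 normalised reads in the mutant libraries, against 1292, 1283 and 1256 in the WT libraries (log2 fold change -0.32 ± 0.07, limma-trend adjusted p = 0.00648). Of 10 stellate or fibroblast markers 8 were listed, their summed level being 145368 to 171403 in mutant and 129414 to 136389 in WT libraries. Of these 8, VIM rose and PDGFRB, ACTA2, THY1 and COL1A2 fell in the mutant, while DES and LRAT were not listed. ALB, TTR, APOA1, CDH5, CD3E, EPCAM and CDH1, markers of other liver cells, were not listed either. The listed endothelial markers (3 of 4) summed to 169 to 201 in mutant and 88.5 to 125 in WT libraries, and of these PECAM1 rose (log2 fold change 2.03), while KDR (-0.52) and VWF (-0.30) did not pass. The leukocyte markers (3 of 4) summed to 280.4 to 309 in mutant and 495 to 577 in WT libraries. CD14 fell (-1.72), CD68 rose (0.74) and PTPRC (-0.08) did not pass. The sums of the epithelial markers (2 of 4, nearly all KRT8) were 8411 to 11777 in mutant and 9228 to 16312 in WT libraries. SERPINA1, the 1 listed hepatocyte marker of 4, ran from 62.4 to 105 in mutant and from 155 to 173 in WT libraries. The part of these differences in the results below was not tested. The genotypes separated on a principal component with 71.8% of the variance, and the libraries numbered 1 stood apart from the others of their genotype on the next, with 15.9%. For this reason the members' genotype differences are given both with all libraries and without those numbered 1. The second kind of fit rests on the libraries numbered 2 and 3 of each genotype alone. Within a genotype the reads of these differed little (chi-square per gene 2.73 in the mutant and 3.51 in WT). Pairs with a library numbered 1 had 14.0 to 35.2. The small p-values of that fit rest on this small scatter, and 55.4% of all genes passed it.

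**Figure D1:**
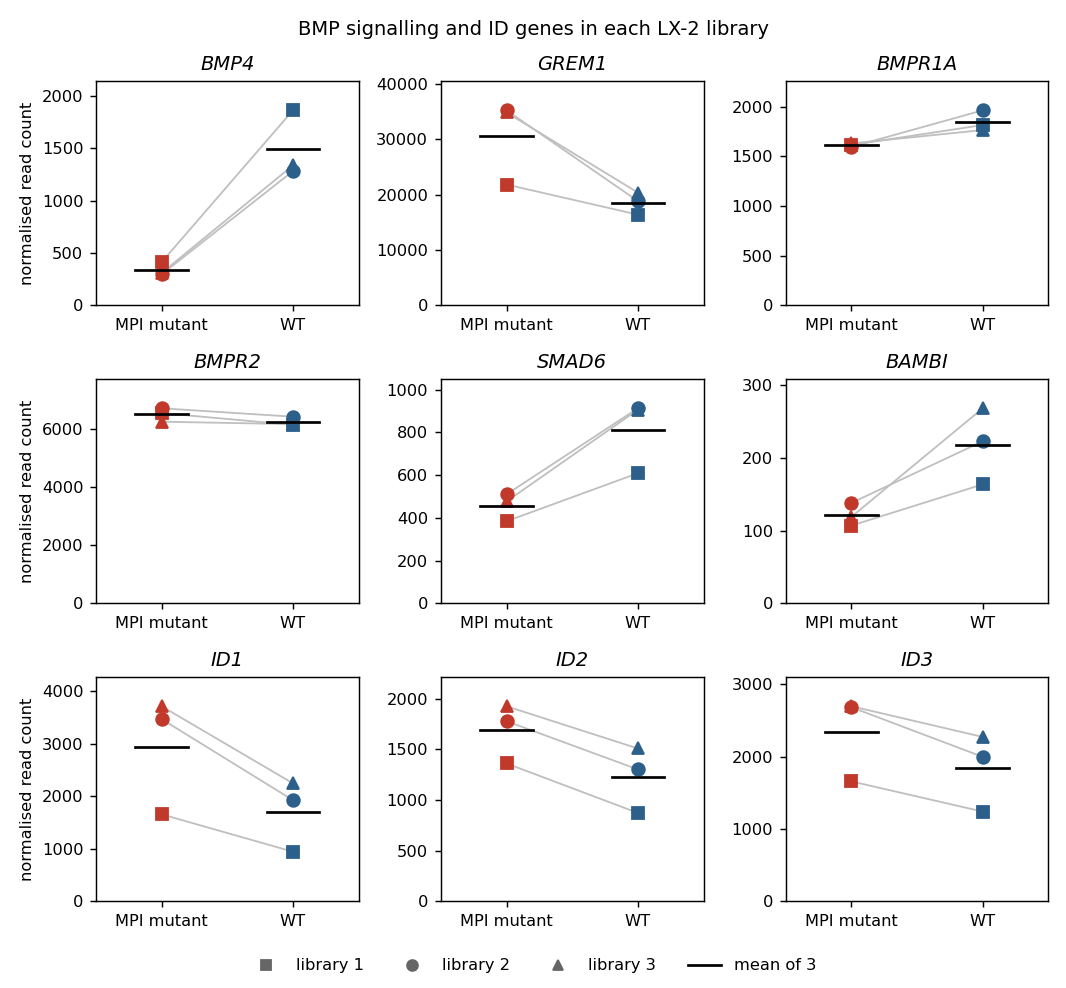
Normalised read count (y axis, from 0) of each of the 9 listed members in the MPI mutant (left) and WT (right) libraries. Squares, circles and triangles are the libraries numbered 1, 2 and 3, grey lines join libraries of the same number, and black bars are means of 3. BMP4 lies between 297 and 413 in the mutant and between 1283 and 1863 in WT, and every grey line of ID1, ID2 and ID3 slopes down towards WT.

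Per kilobase of annotated exon, which allows levels of different genes to be set side by side, ID1 and GREM1 were the most abundant members. In the mutant libraries ID1 averaged 2389 ± 911 reads per kilobase, GREM1 2096 ± 522, ID3 1306 ± 332, ID2 766 ± 133, BMPR2 548 ± 19.7, BMPR1A 141 ± 1.51, BMP4 110 ± 20.6, SMAD6 53.4 ± 7.62 and BAMBI 52.3 ± 6.78 (SD, n = 3). In the WT libraries the order was ID1 with 1383 ± 549, GREM1 with 1269 ± 138, ID3 with 1022 ± 297, ID2 with 557 ± 147, BMPR2 with 526 ± 13.1, BMP4 with 485 ± 104, BMPR1A with 162 ± 9.06, SMAD6 with 94.5 ± 20.3 and BAMBI with 94.1 ± 22.6. BMP4 thus ranked below BMPR1A in the mutant and above it in WT. Of neighbours in these orders, ID1 and GREM1, GREM1 and ID3, and SMAD6 and BAMBI overlapped between libraries in both genotypes, and ID2, BMPR2 and BMP4 also did in WT. Exon length here is that of all annotated transcripts together, so genes with long alternative ends, such as GREM1, come out low on this scale.

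The ligand BMP4 was lower in the mutant, by more than any other member. BMP4 (ENSG00000125378, chr14:53949736-53958761, minus strand) had 413, 297 and 310 normalised reads in the mutant libraries, against 1863, 1283 and 1337 in the WT libraries. No mutant library reached the lowest WT library, and in each genotype the library numbered 1 was the highest. On the log2(value + 1) scale the fold change of mutant over WT was -2.13 ± 0.17 (SE), a level 0.229 times that of WT (limma-trend adjusted p = 5.95e-05). It ranged from -2.27 to -1.96 with and without the 18 alternatives, passing the test in each, and was -2.11 ± 0.07 without both libraries numbered 1 (adjusted p = 4.90e-15). Between libraries of the same number the mutant level was 0.222, 0.232 and 0.232 times that of WT.

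Of the 9 members 1 rose and 3 fell at a limma-trend adjusted p under 0.05. Over all 17893 genes 16.0% rose and 16.6% fell, 32.6% in either direction, and the median log2 fold change was 0.06 over the members and -0.0031 over all genes. GREM1 rose, and BMP4, SMAD6 and BAMBI fell. The members' libraries did not overlap between genotypes for 1 gene higher in the mutant (GREM1) and 4 lower (BMP4, BMPR1A, SMAD6 and BAMBI), where 23.1% and 23.6% of all genes did the same.

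GREM1, which encodes the secreted BMP antagonist gremlin, moved opposite to its ligand BMP4. GREM1 (ENSG00000166923, chr15:32717974-32745107, plus strand) had 21818, 35207 and 34813 normalised reads in the mutant libraries, against 16383, 18833 and 20367 in the WT libraries. All mutant libraries lay above all WT libraries, with mutant library 1 nearest to them. The log2 fold change was 0.70 ± 0.18, or 1.62 times WT (limma-trend adjusted p = 0.0186), and 0.84 ± 0.05 without both libraries numbered 1 (adjusted p = 9.66e-12). The adjusted p rose above the threshold when mutant replicate 2 (0.0694), mutant replicate 3 (0.0685), WT replicate 1 (0.0670) or WT replicate 2 (0.0597) was left out, with fold changes of 0.58 to 0.71. A long noncoding RNA gene, AC090877.2, overlaps GREM1 on the other strand and averaged 301 reads in mutant and 94.0 in WT libraries. No source used here states whether counting used strand, so reads of the pair cannot be told apart.

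The receptors moved little. BMPR1A (ENSG00000107779, chr10:86756601-86932838, plus strand), a type I receptor of BMP ligands, had 1615, 1596 and 1630.5 normalised reads in the mutant libraries, against 1816, 1964 and 1765 in the WT libraries. Its groups did not overlap, the log2 fold change was -0.19 ± 0.07, and the adjusted p of 0.0542 (limma-trend) missed the threshold. It passed with the library number as a block (0.0121), without both libraries numbered 1 (-0.21 ± 0.06, adjusted p = 0.00400), without mutant replicate 1 (0.0304), with upper-quartile rescaling (0.0297) and with a stricter filter (0.0450). BMPR2 (ENSG00000204217, chr2:202376936-202567751, plus strand), the type II receptor, had 6566, 6732 and 6268 in the mutant libraries, against 6158, 6441 and 6185 in the WT libraries. These ranges overlapped, and BMPR2 did not pass in any of the 18 alternatives (0.06 ± 0.06, limma-trend adjusted p = 0.507). Without both libraries numbered 1 its value was 0.04 ± 0.05 (adjusted p = 0.480).

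SMAD6 and BAMBI, inhibitors of the pathway that act in the cytoplasm and at the membrane, were both lower in the mutant, by like amounts. SMAD6 (ENSG00000137834, chr15:66702228-66782848, plus strand), an inhibitory SMAD that is itself induced by BMP, had 384, 510 and 477 normalised reads in the mutant libraries, against 609, 913 and 906 in the WT libraries. The highest mutant library lay below the lowest WT library, and library 1 was the lowest of each genotype. The log2 fold change was -0.81 ± 0.17, or 0.571 times WT (limma-trend adjusted p = 0.00808), and the call held in the 18 alternatives, with values from -1.001 to -0.69. Without both libraries numbered 1 it was -0.88 ± 0.07 (adjusted p = 2.09e-09).

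BAMBI (ENSG00000095739, chr10:28677342-28682939, plus strand), a pseudoreceptor that resembles a type I receptor without its kinase, had 107, 138 and 119 normalised reads in the mutant libraries, against 163, 222 and 268 in the WT libraries. The groups did not overlap. Its log2 fold change was -0.82 ± 0.19, or 0.566 times WT (limma-trend adjusted p = 0.0126), and the adjusted p was 0.0540 without WT replicate 2. Without both libraries numbered 1 it was -0.93 ± 0.13 (adjusted p = 6.78e-06). BAMBI was the least covered member, with 378 reads in the mutant libraries together and 623 in the WT libraries. Across the 6 libraries its log2 level followed that of SMAD6 (Pearson r = 0.980), a description of 6 points that share the genotype and the library number.

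The ID genes were higher in the mutant within each library number, but the spread between libraries of a genotype was wider than that difference. ID1 (ENSG00000125968, chr20:31605283-31606515, plus strand) had 1656, 3468 and 3712 normalised reads in the mutant libraries, against 946, 1926 and 2245 in the WT libraries. Mutant library 1 lay below WT libraries 2 and 3, so the groups overlapped. With genotype as the only term the log2 fold change was 0.79 ± 0.37 and did not pass (limma-trend adjusted p = 0.138). With the library number as a block it was 0.79 ± 0.06 (adjusted p = 1.50e-08), and without both libraries numbered 1 it was 0.79 ± 0.06 (1.98e-08). ID1 and ID3 were chosen for their shared drop in library 1, which is the variation that both these fits take out. Their smaller p-values in these fits were favoured by that choice and carry no support. The mutant level was 1.75, 1.80 and 1.65 times that of WT within the libraries numbered 1, 2 and 3. Leaving out a single library of number 1 moved the value in opposite directions, to 1.17 without mutant replicate 1 and to 0.42 without WT replicate 1, neither of which passed.

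ID2 (ENSG00000115738, chr2:8678845-8684453, plus strand) showed the same order at a smaller size. It had 1362, 1779 and 1926 normalised reads in the mutant libraries, against 873, 1303 and 1509 in the WT libraries. The groups overlapped through mutant library 1. The log2 fold change was 0.48 ± 0.20 with genotype alone (limma-trend adjusted p = 0.103), 0.48 ± 0.06 with the block (1.83e-05) and 0.40 ± 0.07 without both libraries numbered 1 (3.55e-05). Within numbers 1, 2 and 3 the mutant level was 1.56, 1.37 and 1.28 times that of WT. An antisense gene, ID2-AS1, overlaps ID2 and averaged 28.2 reads in mutant and 28.8 in WT libraries.

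ID3 (ENSG00000117318, chr1:23557918-23559794, minus strand) had 1659, 2684 and 2698 normalised reads in the mutant libraries, against 1241, 1998 and 2273 in the WT libraries. Mutant library 1 again lay below WT libraries 2 and 3. The log2 fold change was 0.36 ± 0.25 with genotype alone (limma-trend adjusted p = 0.301), 0.36 ± 0.06 with the block (8.79e-05) and 0.34 ± 0.06 without both libraries numbered 1 (3.71e-05). The ratio within each number was 1.34, 1.34 and 1.19.

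**Figure D2:**
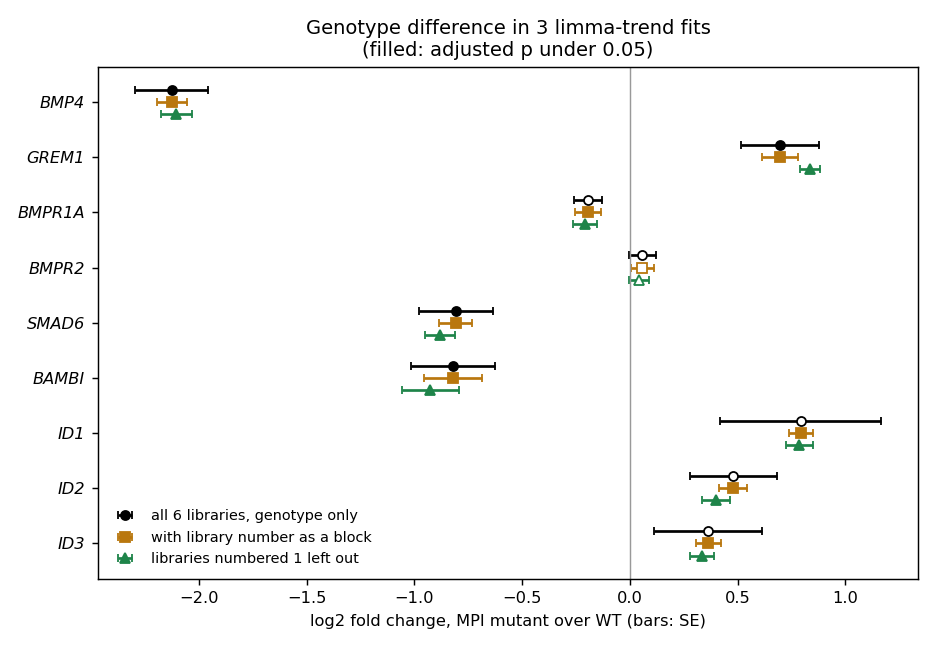
Log2 fold change of each member, MPI mutant over WT (x axis, bars are SE), from limma-trend with genotype alone (circles), with the library number as a block (squares) and without the libraries numbered 1 (triangles), filled where the adjusted p is under 0.05. The bars of ID1, ID2 and ID3 are several times shorter with the block and without the libraries numbered 1, while the values move little (0.79 in all 3 fits for ID1).

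With the block, 4 members rose (ID1, ID2, ID3 and GREM1) and 4 fell (BMP4, BMPR1A, SMAD6 and BAMBI), where 25.1% of all genes rose and 24.6% fell, 49.8% in either direction. The same 8 passed without both libraries numbered 1, where 28.3% of all genes rose and 27.1% fell, 55.4% in either direction. They also passed in edgeR's quasi-likelihood test with the block, where 25.9% rose and 23.6% fell, 49.5% in either direction. DESeq2 without a block called 1 member higher and 3 lower, with 32.9% of all genes called, and so did the authors' deposited table, with 32.9% called. Without a block, edgeR gave ID1, ID2 and ID3 adjusted p of 0.119, 0.0994 and 0.282, and DESeq2 gave 0.233, 0.0573 and 0.468. Mutant above WT in every same-numbered pair held for 5 members, GREM1 and BMPR2 with the ID genes, and for 34.8% of all genes. Below in every pair were 4 members and 34.3% of all genes. The calls of ID1, ID2 and ID3 thus depend on how the libraries numbered 1 are treated, and the labels do not say what the numbers mark. ID1 and ID3 were chosen on the deviation that the block, or leaving out those libraries, takes out. Their calls in such fits carry no support, and the counts of members that include them are no fair comparison with the shares of all genes.

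The libraries numbered 1 are described apart, with no test, since ID1 and ID3 were chosen for being low in them. The log2 level of ID1 in library 1 was below the mean of libraries 2 and 3 by 1.12 in the mutant (-1.12) and by 1.14 in WT (-1.14), or 0.462 and 0.455 times that mean. For ID3 the differences were -0.70 and -0.78, and for ID2 they were -0.44 in the mutant and -0.68 in WT. Libraries 2 and 3 of ID1 lay 0.10 apart in the mutant and 0.22 in WT. A difference of -0.5 or lower in both genotypes was shown by 2 members (ID1 and ID3) and by 1.05% of all tested genes, with ID2 just outside in the mutant. The reverse, at least 0.5 higher in both, was shown by 5.49% of genes and by no member. In both genotypes 5 of the 17893 genes, ID1 itself among them, were at or below ID1, and 42 were at or below ID3. Since ID1 and ID3 were chosen on this contrast, these ranks and the 2 members counted above carry no support.

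The inhibitors were also lower in library 1 of each genotype. SMAD6 deviated by -0.36 in the mutant and -0.58 in WT, BAMBI by -0.26 and -0.58, and GREM1 by -0.68 and -0.26. BMP4 went the other way, by 0.44 in the mutant and 0.51 in WT. BMPR1A and BMPR2 stayed within 0.04 of the other libraries, from -0.04 to 0.02. Over all genes the median deviation was -0.0012 in the mutant and -0.01 in WT, and the central 90% of genes lay between -0.51 and 0.96 and between -0.41 and 0.68. ID1, ID2 and ID3 thus had the sign of SMAD6 and BAMBI in library 1, but the opposite sign in the same-numbered genotype difference.

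**Figure D3:**
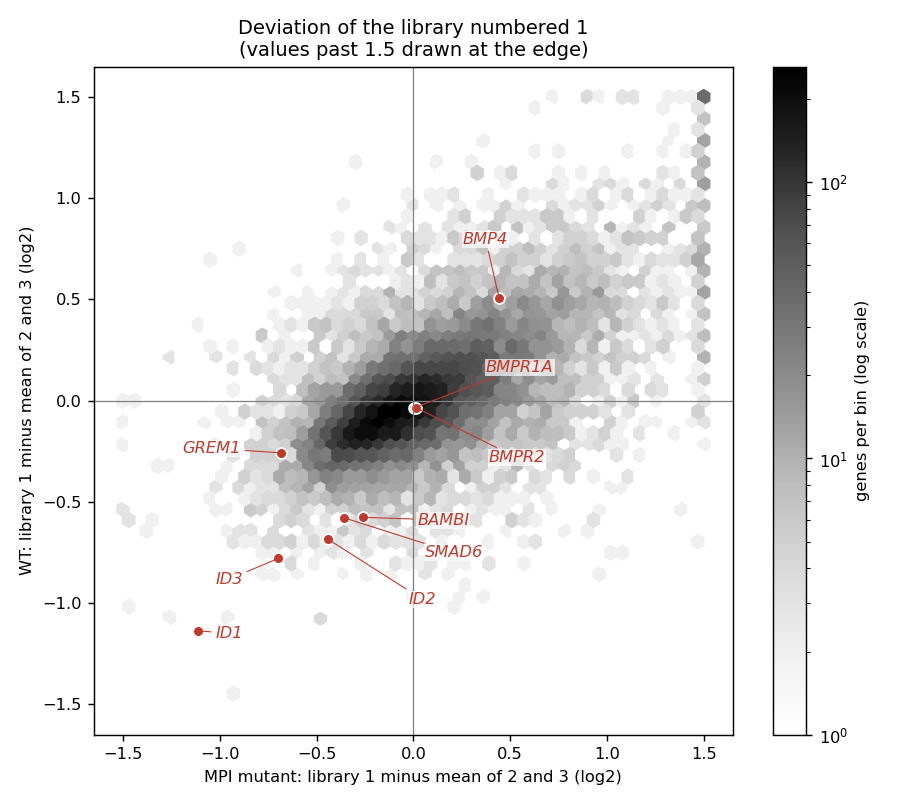
Deviation of library 1 from the mean of libraries 2 and 3 on the log2 scale, in the MPI mutant (x axis) and WT (y axis). Grey hexagons are all 17893 tested genes, counted on a log scale, and red points are the 9 members. ID1 (-1.12 and -1.14) lies at the lower left edge, with ID3 nearest to it, and BMP4 (0.44 and 0.51) in the opposite quadrant.

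Among the other genes of the pathway only 1 of 49 tested, ATOH8, was at least 0.5 lower in library 1 of both genotypes. ATOH8, a basic helix-loop-helix factor induced by BMP in endothelial cells, had 374, 750.2 and 836 normalised reads in the mutant libraries, against 767, 1115 and 1179 in the WT libraries. Unlike the ID genes it was lower in the mutant in each number, with a log2 fold change of -0.70 ± 0.29 (limma-trend adjusted p = 0.100) that passed with the block (7.97e-05). SMAD7 deviated by -0.43 in library 1 of the mutant and by -0.47 in that of WT. The 13 immediate early genes had median library 1 deviations of 0.02 in the mutant and -0.08 in WT, and none of them reached -0.5 in both genotypes. The cause of the library 1 deviations was not tested.

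The genes whose log2 levels followed ID1 most closely over the 6 libraries, among 12253 genes with a mean of at least 100, were PSMC1 (Pearson r = 0.998), DCTN1 (0.998), MRPL24 (0.997), LAP3 (0.996) and MRPL50 (0.996). For ID3 they were SEC22B (0.999), WDR33 (0.996), SRP54 (0.996), ZBTB11-AS1 (0.992) and TTC1 (0.991). Library 1 of PSMC1 deviated by -0.33 in the mutant and by -0.32 in WT, and that of SEC22B by -0.15 and -0.15. ZBTB11-AS1 deviated furthest of the 10, by -0.49 in the mutant and by -0.66 in WT. None of these 10 genes passed the genotype test with genotype alone. Within the members ID1 correlated with ID3 at 0.985 and with ID2 at 0.981. These values describe 6 points that share 2 genotypes and the deviation of the libraries numbered 1. ID1 and ID3 were chosen for that deviation, so a high r between them was favoured in advance.

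Of the 78 other pathway genes in 7 lists, 49 were listed and tested, with 11 higher and 9 lower in the mutant by the same test, which called 16.0% of all genes higher and 16.6% lower. Their median log2 fold change was 0.12. The 29 others did not pass. With the block 16 rose and 11 fell, where 25.1% and 24.6% of all genes did. Without both libraries numbered 1, 19 rose and 13 fell, where 28.3% and 27.1% of all genes did. The number that fell was 4 without mutant replicate 2 and 5 without mutant replicate 3, WT replicate 2 or WT replicate 3.

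Of other BMP and GDF ligands 4 of 16 were listed, and 1 rose and 1 fell, beside 16.0% and 16.6% of all genes. BMP8B fell to 150.1 ± 6.72 normalised reads in the mutant, against 313 ± 26.7 in WT (-1.05 ± 0.11, limma-trend adjusted p = 2.50e-04). BMP6, the ligand by which liver endothelium controls hepcidin, rose on few reads, 59 in the mutant libraries together and 19 in the WT libraries (1.36 ± 0.39, adjusted p = 0.0286). This call was lost without mutant replicate 3 or any 1 of the WT replicates (adjusted p of 0.0512 to 0.0924). GDF9 measured 20.5 ± 1.06 in the mutant and 17.9 ± 6.70 in WT. BMP2, the closest relative of BMP4, was not listed.

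Of the SMADs 3 of 4 fell, and none rose (median log2 fold change -0.33), beside 16.6% of all genes that fell. They were the 3 receptor-activated SMADs of the BMP branch. SMAD1 had 271.0, 236 and 271.2 normalised reads in the mutant libraries, against 360.3, 425 and 361 in the WT libraries, a log2 fold change of -0.55 ± 0.11 (limma-trend adjusted p = 0.00607). SMAD9 fell by 0.43 ± 0.10 (-0.43, adjusted p = 0.0141) and SMAD5 by 0.23 ± 0.06 (-0.23, adjusted p = 0.0248). SMAD4, the partner shared with TGF-beta, measured 3505 ± 92.5 in the mutant and 3577 ± 84.4 in WT (adjusted p = 0.738). SMAD1 passed under each alternative, and the calls of SMAD5 and SMAD9 were lost without mutant replicate 2 or 3 or without WT replicate 2 or 3 (adjusted p of 0.0523 to 0.105). That of SMAD5 was also lost without WT replicate 1 (0.0629).

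Of other receptors and coreceptors 8 of 10 were listed, of which none rose and 3 fell, beside 16.0% and 16.6% of all genes. ENG (endoglin), a coreceptor for BMP and TGF-beta ligands, measured 2561 ± 170 in the mutant and 3129.97 ± 294 in WT (-0.29 ± 0.09, limma-trend adjusted p = 0.0355). ACVRL1, a type I receptor best known from endothelium, measured 61.4 ± 14.2 in the mutant and 93.4 ± 4.26 in WT (-0.62 ± 0.19, adjusted p = 0.0366). RGMA, a coreceptor gene, fell on 31 reads in the mutant and 102 in the WT libraries (-1.53 ± 0.49, adjusted p = 0.0418). All 3 calls were lost without mutant replicate 2 or WT replicate 2. Those of ENG and RGMA were also lost without mutant replicate 3, those of ENG and ACVRL1 without WT replicate 3, and those of ACVRL1 and RGMA without WT replicate 1 (adjusted p of 0.0519 to 0.133 over these). RGMB measured 7209 ± 706 in the mutant and 6149 ± 269.6 in WT (adjusted p = 0.0685). With the block 2 rose and 4 fell, beside 25.1% and 24.6% of all genes.

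Of secreted binders of BMPs and their relatives 12 of 19 were listed, of which 3 rose and 2 fell, beside 16.0% and 16.6% of all genes. FSTL3, a follistatin relative that binds activins, rose to 1259 ± 228 in the mutant, against 647 ± 53.8 in WT (0.95 ± 0.14, limma-trend adjusted p = 0.00116). CHRDL1, a chordin-like BMP antagonist, rose to 1447 ± 212, against 975 ± 121 in WT (0.57 ± 0.12, adjusted p = 0.00878). KCP, a chordin-related protein gene, rose on 111 reads in the mutant and 37 in the WT libraries (1.40 ± 0.41, adjusted p = 0.0317), a call lost without mutant replicate 3, WT replicate 2 or WT replicate 3 (adjusted p of 0.0523 to 0.112). CRIM1, a transmembrane protein that binds BMPs, fell by 1.10 on the log2 scale (-1.10 ± 0.07), and FSTL1 fell to 20554 ± 3312, against 36865 ± 6311 in WT (-0.84 ± 0.15, adjusted p = 0.00308). TWSG1 measured 7158 ± 70.2 in the mutant and 7607 ± 225 in WT (adjusted p = 0.301). NOG (noggin) measured 81.1 ± 1.60 and 108 ± 24.5 in mutant and WT, and did not pass.

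Of inhibitors inside the cell 4 of 8 rose and none fell, with a median log2 fold change of 0.32, beside 16.0% of all genes that rose. SMAD7, the inhibitory SMAD induced by TGF-beta as well as BMP, had 745, 1020.2 and 996 normalised reads in the mutant libraries, against 446, 601 and 634 in the WT libraries. SMAD7 did not overlap between genotypes and rose by 0.72 ± 0.16 (limma-trend adjusted p = 0.0105), opposite to SMAD6. SMURF1 and SMURF2, ubiquitin ligases that mark SMADs and receptors for breakdown, rose by 0.53 ± 0.06 and 0.58 ± 0.08 (adjusted p = 3.74e-04 and 0.00104). SKIL, a corepressor of SMAD complexes, rose by 0.48 ± 0.08 (adjusted p = 0.00242). These 4 calls held under every alternative. FKBP1A, which shields type I receptors from activation without ligand, measured 15295 ± 1850.3 in the mutant and 14016 ± 206 in WT (adjusted p = 0.372).

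Of other BMP target genes 7 of 12 were listed, of which 1 rose and none fell, beside 16.0% and 16.6% of all genes. RUNX2, the osteoblast transcription factor, rose to 1536 ± 121 in the mutant, against 951 ± 111 in WT (0.69 ± 0.10, limma-trend adjusted p = 0.00132). MSX1 and MSX2, homeobox genes of the same list, had log2 fold changes of 0.25 ± 0.11 and 0.29 ± 0.18 and did not pass. HAMP, the hepcidin gene of hepatocytes, was not listed.

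Of bHLH factors, the proteins that ID proteins bind or whose partners they take up, 6 of 9 were listed. Of these 2 rose and none fell, beside 16.0% and 16.6% of all genes. TCF4, an E protein, had 5915, 5970.3 and 5623 normalised reads in the mutant libraries, against 2566, 2806 and 2424 in the WT libraries. Its groups lay far apart, and the log2 fold change was 1.17 ± 0.07 (limma-trend adjusted p = 1.65e-05). TWIST2, a class II factor of mesenchymal cells, rose to 1799 ± 467, against 947 ± 139.6 in WT (0.90 ± 0.19, adjusted p = 0.00841). TCF3, another E protein, measured 5209 ± 63.4 in the mutant and 4799 ± 125 in WT (adjusted p = 0.156). TCF12 and TWIST1 had log2 fold changes of 0.09 ± 0.06 and 0.15 ± 0.08 and did not pass.

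**Figure D4:**
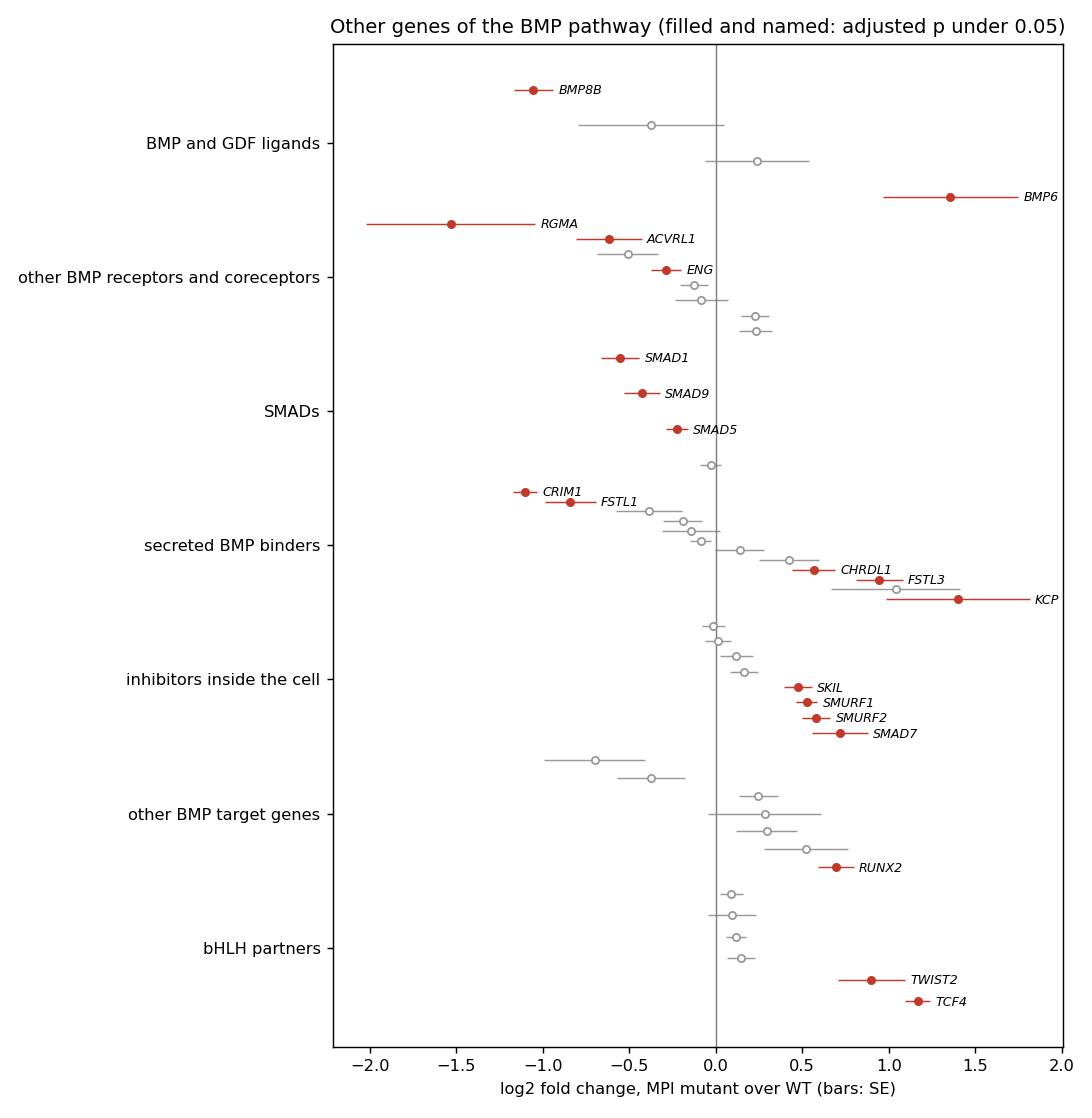
Log2 fold change, MPI mutant over WT (x axis, bars are SE), of the 49 tested genes of 7 lists of the BMP pathway (rows), from limma-trend with genotype alone. Red filled points passed at an adjusted p under 0.05 and are named, open grey points did not. The 3 red points among the SMADs lie below 0 and the 4 among the inhibitors inside the cell lie above 0.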

How the data were processed

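Poly(A)-selected RNA of 6 LX-2 libraries, 3 MPI mutant and 3 WT, was sequenced paired-end, per the labels' protocols. Tools listed in the submitters' processing notes are STAR 2.5.2b, Trimmomatic 0.36, DESeq2 and featureCounts of Subread 1.5.2, with GRCh38 as the build. Their settings, annotation and strandedness are not stated there. The authors deposited 1 signal column per library, which by its values is gene counts divided by 1 size factor (0.859 to 1.10): 100% of values were whole multiples of 1 step within 0.01 of a read. The authors' deposited log2 fold change, p-value and adjusted p-value served only as an alternative.

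The test was limma-trend (limma 3.58.1, robust, R 4.3.3) on log2(value + 1) of 17893 genes whose mean reached 10. Its single term was genotype, and p was adjusted by Benjamini-Hochberg over all of them and called under 0.05. It was tested on simulated data. These held no shared deviation of the libraries numbered 1, so that test does not bear on the calls of the ID genes. The pseudocount shrinks fold changes of low genes. Alternatives were DESeq2 1.42.0 and edgeR 4.0.16 on recovered reads, a block, other scalings, filters and pseudocounts, and leaving out libraries. Members and lists were chosen with earlier results of these data known. Other genes were named by list: up to 3 with the largest change past the test (mean in the higher group 100 or more), the most abundant that did not pass, and any making up a count of 3 or fewer. SKIL, NOG, MSX1, MSX2, TCF12, TWIST1 and the single markers were named after their values were seen. The TATAA motif was added after the windows were seen. Gene coordinates and exon lengths are those of GENCODE release 29 on GRCh38, a release chosen here. Of the 10 members all had a RefSeq promoter window.

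Same-numbered libraries deviated together from their genotype means (r = 0.545, 0.189 and 0.276 for numbers 1, 2 and 3, all over 0.1). The number was used as a block in alternative fits alone, and the main test left it out. Any pairing rests on the deviations, since no label names a batch. Deviations from a mean of 3 are tied to each other. A shift shared by the libraries numbered 1 can thus by itself give positive r among the others. Mutant 2 with WT 3 (0.299) and mutant 3 with WT 2 (0.168) were also over 0.1, so only the pair numbered 1 stands out. The value of a blocked fit stands beside each member whose call it changes.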

Additional observations from a re-analysis of the deposited data

How the results depend on the processing

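Under the 18 alternatives no member changed sign, and BMP4 and SMAD6 kept their calls in all of them. The replicate block raised the number of genes higher in the mutant to 4494 and of members higher to 4. With edgeR and the block these were 4640 and 4, with 17 pathway genes higher. Without both libraries numbered 1, 4984 genes were higher and 4758 lower, with 4 members and 19 pathway genes higher. The cause of these shifts was not tested. With genotype alone limma-trend called 2866 genes higher and 2963 lower, and edgeR on the recovered reads 3007 and 2872. Leaving out single libraries gave 1738 to 4389 genes higher, 0 to 1 members higher and 4 to 10 pathway genes lower. The members' log2 fold changes then ran from -0.23 to -0.15 for BMPR1A, -1.01 to -0.66 for BAMBI and 0.58 to 0.92 for GREM1.

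Calls were gained with the replicate block by ID1 (0.79), ID2 (0.48), ID3 (0.36) and BMPR1A (-0.19), without both libraries numbered 1 by ID1 (0.79), ID2 (0.40), ID3 (0.34) and BMPR1A (-0.21), and with edgeR and the block, an alternative chosen after seeing the data, by ID1 (0.80), ID2 (0.49), ID3 (0.37) and BMPR1A (-0.18). BMPR1A also gained it without mutant replicate 1 (-0.19), with upper-quartile rescaling (-0.23) and with a mean of at least 50 (-0.19). The block changed no call of BMP4, BMPR2, SMAD6, BAMBI or GREM1. Upper-quartile rescaling moved the library 1 deviation of BMPR1A in the mutant to 0.0575 and that of BMPR2 to 0.0713 in the mutant and 0.0039 in WT. The median log2 fold change of all genes moved most under upper-quartile rescaling, to -0.034. Of the 20 called pathway genes, BMP6, RGMA and KCP rest on the fewest reads.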
